A study of Mus musculus with 24 samples.

Results

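The lens gene set comprised 31 genes: 16 crystallins (2 alpha, 6 beta and 8 gamma), 3 membrane and junction proteins, 2 beaded filament proteins, 6 other proteins of lens fiber cells and 4 regulators of lens development. The members were taken by gene symbol from a named list and not by a threshold on their levels. The list was, however, chosen with earlier results of these data known. All 31 were listed among the 36595 genes of the retina table and among the 36109 genes of the lung table. Levels are given as CPM, the estimated counts of a gene scaled to a library total of 1000000. The retinas came from newborn C57/B6 mice in 4 groups of 3: wild-type littermates in room air (WT-RA), wild-type in hyperoxia (WT-O2), GSDMD knockouts in room air (KO-RA) and GSDMD knockouts in hyperoxia (KO-O2). The knockouts carried a CRISPR deletion in the germline copy of Gsdmd, the gene of the pore-forming protein gasdermin D. For retinas, hyperoxia was 75% oxygen from postnatal day 7 to day 12, followed by room air to day 17, the schedule of the oxygen-induced retinopathy model, and tissue was collected on day 18. Lungs of another 12 mice in the same 4 groups of 3 served as a reference. For lungs, hyperoxia was 85% oxygen from postnatal day 1 to day 14 and tissue was collected on day 15. Each library was one mouse, named here by its label. The question was which retina libraries held transcripts of the lens, in particular GSD304, GSD382 and GSD383, and which of these genes were measured in the other 9 retinas.

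The lens lies directly in front of the vitreous and is removed when a retina is dissected. Its fiber cells fill themselves with crystallins, the soluble proteins that give the lens its refractive index. Alpha-crystallins are small heat shock proteins that also act as chaperones outside the lens, whereas beta- and gamma-crystallins form a separate superfamily of compact structural proteins. Cells of the lens epithelium divide and then turn into fibers, so genes of epithelium and of fibers mark different compartments of the same tissue.

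Several members resemble each other so closely that reads can be divided among them in more than one way. Crygd, Cryge and Crygf, 3 gamma-crystallins on chromosome 1, are shown by their first 120 coding bases (GENCODE M21, GRCm38), with capitals where a base differs from that of Cryge.
Crygd: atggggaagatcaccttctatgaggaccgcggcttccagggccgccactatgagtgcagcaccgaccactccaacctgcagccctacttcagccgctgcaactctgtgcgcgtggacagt
Cryge: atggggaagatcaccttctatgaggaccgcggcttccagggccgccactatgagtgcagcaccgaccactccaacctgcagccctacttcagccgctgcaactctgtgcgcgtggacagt
Crygf: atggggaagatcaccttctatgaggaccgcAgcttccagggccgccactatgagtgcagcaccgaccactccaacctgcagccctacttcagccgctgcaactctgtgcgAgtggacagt
Over this stretch Crygd did not differ from Cryge, and Crygf differed at 2 positions. Over the whole coding sequence, Cryge and Crygf were 98.1% identical, Crygd and Cryge 91.6%, and Crygd and Crygf 90.6%. Of all 31-base words of Cryge transcripts, 57.5% also occurred in another gene, mostly Crygf and Crygd. The share was 47.2% for Crygf, 44.0% for Cryga, 31.6% for Crygb, 25.8% for Crygc and 25.1% for Crygd. Levels of single genes in this cluster are therefore uncertain, and their sum is more secure. Crygn and Crygs, which lie elsewhere in the genome, shared no such word. Lenep, the gene of a lens epithelial protein, shared 99.1% of its words with Flad1, a gene expressed in both tissues, so that small Lenep values could not be assigned to it. Mip shared 56.4%, with the predicted gene Gm26847.

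The same 3 gamma-crystallins also shared part of their promoters. The sequences below, from RefSeq on GRCm38.p6, cover 250 bases before and 50 bases after each transcript start and are shown because their genes were high in the same libraries. The capitals mark the longest stretch common to all 3, which was 55 bases long and was found in the promoters of no other gene among the 32851 promoters searched on both strands.
Crygd promoter, chr1:65063391-65063690, minus strand: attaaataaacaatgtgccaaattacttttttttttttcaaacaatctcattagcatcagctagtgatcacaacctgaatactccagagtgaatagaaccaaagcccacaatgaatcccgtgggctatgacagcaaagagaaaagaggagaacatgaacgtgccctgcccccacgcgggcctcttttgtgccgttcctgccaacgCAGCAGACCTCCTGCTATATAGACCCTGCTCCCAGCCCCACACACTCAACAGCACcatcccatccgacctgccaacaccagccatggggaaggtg
Cryge promoter, chr1:65051114-65051413, minus strand: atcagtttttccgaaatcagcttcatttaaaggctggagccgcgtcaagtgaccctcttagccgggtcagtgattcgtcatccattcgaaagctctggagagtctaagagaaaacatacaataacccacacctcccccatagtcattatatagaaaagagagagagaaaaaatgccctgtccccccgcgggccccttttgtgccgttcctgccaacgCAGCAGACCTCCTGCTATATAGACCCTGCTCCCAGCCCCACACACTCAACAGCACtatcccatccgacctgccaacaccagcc
Crygf promoter, chr1:65926272-65926571, plus strand: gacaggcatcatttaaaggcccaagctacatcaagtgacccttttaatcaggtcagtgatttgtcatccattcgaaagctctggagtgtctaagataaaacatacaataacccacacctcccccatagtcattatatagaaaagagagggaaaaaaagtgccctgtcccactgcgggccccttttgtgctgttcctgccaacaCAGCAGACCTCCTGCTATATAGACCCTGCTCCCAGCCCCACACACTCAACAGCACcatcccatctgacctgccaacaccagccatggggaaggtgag
For Cryaa and Crygs the capitals mark TGCTGA, the core letters of a binding site of MAF factors, on either strand. MAF factors are regulators of crystallin genes in lens fibers.
Cryaa promoter, chr17:31677681-31677980, plus strand: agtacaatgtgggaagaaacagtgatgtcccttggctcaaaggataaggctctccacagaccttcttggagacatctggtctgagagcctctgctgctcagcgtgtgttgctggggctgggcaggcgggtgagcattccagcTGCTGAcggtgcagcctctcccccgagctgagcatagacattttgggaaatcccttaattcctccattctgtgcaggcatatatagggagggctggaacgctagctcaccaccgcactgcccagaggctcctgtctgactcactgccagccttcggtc
Crygs promoter, chr16:22811361-22811660, minus strand: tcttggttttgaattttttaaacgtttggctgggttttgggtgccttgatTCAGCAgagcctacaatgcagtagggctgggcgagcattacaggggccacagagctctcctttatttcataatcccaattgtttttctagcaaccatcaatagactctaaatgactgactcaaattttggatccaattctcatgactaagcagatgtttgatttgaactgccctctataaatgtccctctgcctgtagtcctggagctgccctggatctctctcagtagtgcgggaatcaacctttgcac
These letters occurred in 17 of the 28 members that had a promoter in the table, in 10 of the 15 crystallins among them, and in 19.5% of all promoters. The letters TATAAA occurred in 8 of the 28 members and in 13.6% of all promoters. A match describes the sequence and does not show a used site.

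Library size was 24863257 to 29093035 counts for retinas and 28763661 to 29604254 for lungs, so that 3 counts, the floor used here, corresponded to 0.101 to 0.121 CPM. The markers of rod photoreceptors, the main cells of the retina, summed to between 52048 and 69054 CPM in the 12 retinas and to at most 4.35 CPM in the lungs. Gsdmd was lower in every KO lung (11.4 to 25.2 CPM) than in every WT lung (32.1 to 43.2 CPM), whereas in retinas it was low and overlapped between genotypes (0.593 to 3.07 CPM in KO and 0.375 to 5.95 CPM in WT).

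Lens transcripts were abundant in 3 of the 12 retinas. The 31 members summed to 128210 CPM in GSD383 (WT-RA), 81594 CPM in GSD304 (KO-RA) and 47966 CPM in GSD382 (WT-RA), which was 12.8%, 8.16% and 4.80% of all counts of these libraries. All 3 were retinas from room air. In GSD310 (KO-O2) the sum was 903 CPM, and in the other 8 retinas it lay between 270 and 363 CPM, against 337 to 452 CPM in the 12 lungs. Sums of similar size did not hold the same genes. Beta-crystallins summed to 34.9 CPM in GSD379 and 32.1 CPM in GSD301, but to at most 2.99 CPM in the lungs. The 16 crystallins alone ranged from 105 CPM in GSD302 (KO-RA) to 125671 CPM in GSD383. In 30 of the 31 members the lowest of the 3 libraries lay above the highest of the other 9, the exception being Tdrd7. This describes the set and tests nothing, since the 3 libraries had been named from these genes. The pattern was shown by 93 (0.592%) of the 15707 genes whose retina mean reached 1 CPM, a level that members such as Foxe3, Dnase2b, Gja3 and Lim2 reached through the 3 libraries alone (means of 0, 0.021, 0.065 and 0.27 CPM in the other 9).

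**Figure D1:**
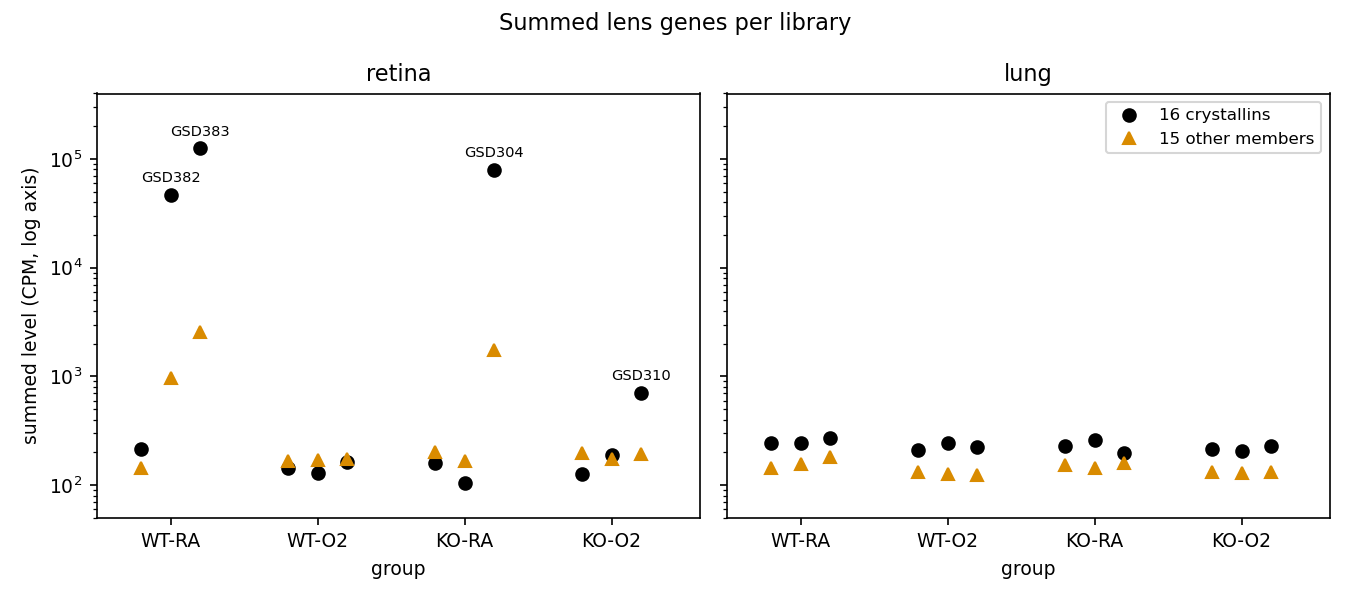
Summed level in CPM (log axis) of the 16 crystallins (circles) and the 15 other members (triangles) in each of 12 retinas and 12 lungs, 1 point per mouse by group. GSD382, GSD383 and GSD304 lie far above all other libraries, GSD310 lies between, and the lungs lie within 196 to 270 CPM for crystallins.

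Among the alpha-crystallins, Cryaa separated the libraries most plainly. In WT-RA retinas Cryaa was at 16.4 CPM in GSD379, 5841 in GSD382 and 18364 in GSD383. In KO-RA it was at 13.6 CPM in GSD301, 0.684 in GSD302 and 7610.5 in GSD304. In hyperoxia it was at 0.731, 1.65 and 1.68 CPM in the WT-O2 retinas, and at 0.461, 0.930 and 121 CPM in KO-O2, the last of these in GSD310. WT-RA thus held 2 very high retinas beside 1 low one and KO-RA 1 beside 2 low ones, and within the low range GSD301 and GSD379 stood above the remaining ones other than GSD310. Cryab, the stress-inducible alpha-crystallin, had a different baseline. It was at 107, 2958 and 10510 CPM in WT-RA (GSD379, GSD382, GSD383) and at 81.8, 92.5 and 3181 CPM in KO-RA (GSD301, GSD302, GSD304). In WT-O2 it was at 125, 110 and 141 CPM, and in KO-O2 at 112, 169 and 182 CPM. Every retina therefore held at least 81.8 CPM of Cryab, also those with less than 1 CPM of Cryaa.

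The 6 beta-crystallins followed Cryaa. Cryba1, the most abundant, was at 15003 CPM in GSD383, 6592 in GSD304, 4463 in GSD382 and 81.5 in GSD310. It was at 10.8 CPM in GSD379 and 10.2 CPM in GSD301, and at 0.480 to 1.09 CPM in the remaining 6 retinas. Cryba2, Cryba4, Crybb1 and Crybb2 showed the same order of GSD383, GSD304, GSD382 and GSD310, with 19.2 to 52.1 CPM in GSD310. Crybb3 departed from this pattern at low levels. It was at 7.40, 1759 and 5228 CPM in WT-RA, 6.11, 8.76 and 8.26 CPM in WT-O2, 7.46, 3.48 and 2370 CPM in KO-RA, and 7.99, 8.33 and 50.4 CPM in KO-O2. In the 6 retinas in which the other 5 beta-crystallins did not exceed 1.78 CPM, Crybb3 was thus at 3.48 to 8.76 CPM. Its transcripts shared 0.698% of their 31-base words with other genes.

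The gamma-crystallins, which lens fibers make mainly while they elongate, reached the highest sums. Crygd was at 14067 CPM in GSD383, 10875 in GSD304 and 5573 in GSD382, against 29.7 CPM in GSD310 and 0.148 to 14.2 CPM in the other 8 retinas. Crygb was highest in GSD304, with 11762 CPM, close to the 11549 CPM of GSD383. Cryga and Crygf were also highest in GSD304, at 6709 and 3912 CPM against 3886 and 2955 CPM in GSD383. Crygf, whose promoter and coding start are shown above, was at 0 in 5 of the other 9 retinas. Crygs, the gamma-crystallin of later fibers, was at 4549, 2022 and 1495 CPM in GSD383, GSD304 and GSD382 and at most 16.7 CPM elsewhere. Crygn, which is also known from the nervous system, remained the lowest of the class in the 3 libraries (178, 60.7 and 47.5 CPM). In the WT-O2 retinas, all with little Cryaa, Crygn was at 0 in GSD345, 3.20 CPM in GSD347 and 1.98 CPM in GSD350, while Cryga and Crygd were at 2.76 and 2.48 CPM in GSD345.

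**Figure D2:**
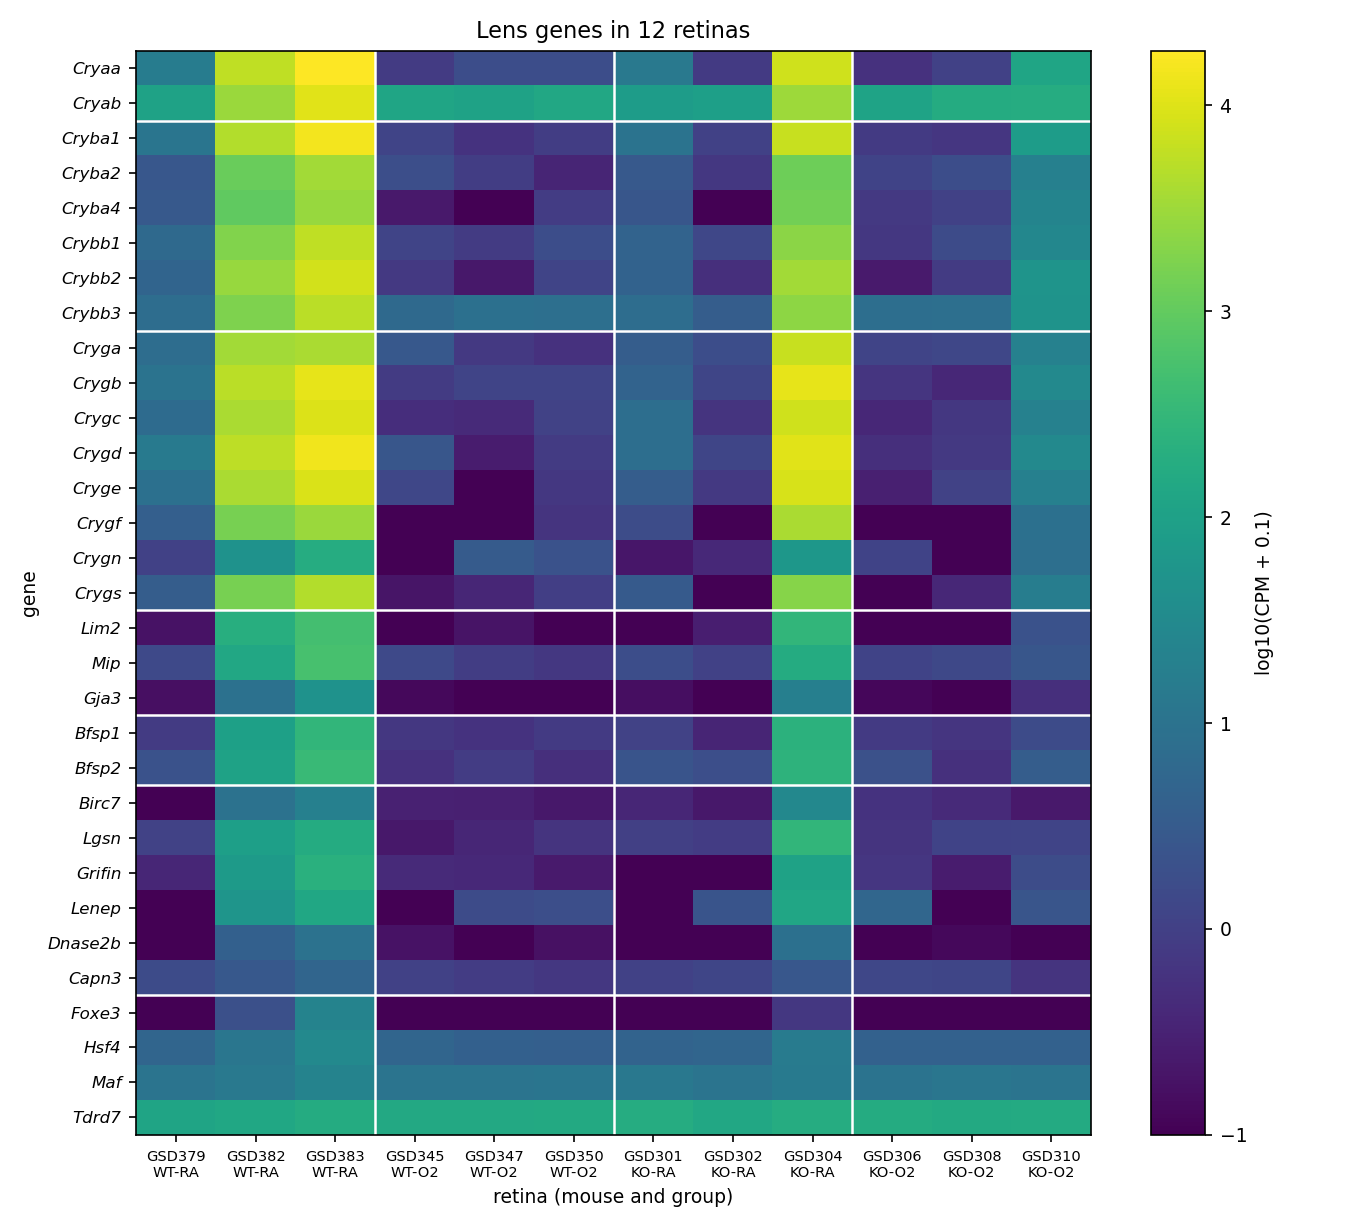
Level of each of the 31 members (one per line) in each of 12 retinas (columns, by group), as log10 of CPM plus 0.1. Horizontal lines separate the functional groups. The columns of GSD382, GSD383 and GSD304 are brightest in the crystallins, GSD310 is intermediate there, and Cryab and Tdrd7 are at 81.8 CPM or more in every column.

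The high libraries did not hold the same mixture of crystallins. Gamma-crystallins made up 64.9% of crystallin counts in GSD304 (95% Wilson interval 64.8 to 65.0), 53.7% in GSD382 (53.6 to 53.8) and 44.7% in GSD383 (44.7 to 44.8), the intervals covering counting error only. In GSD310 the gamma share was 21.6% (21.0 to 22.1) and the beta share 35.8% (35.1 to 36.4). In the 6 retinas with the least Cryaa, alpha-crystallins made up 87.1% to 90.6%, nearly all of it Cryab, and gamma-crystallins 2.14% to 5.34%. Relative to Cryaa of the same library, Crygb was at 1.55 in GSD304, 0.917 in GSD382, 0.629 in GSD383 and 0.245 in GSD310. All 6 genes from Cryga to Crygf had this order, with ratios that differed 1.87- to 4.17-fold among the 3 libraries. The ratios of beta-crystallins to Cryaa differed only 1.07- to 1.22-fold among the same libraries, and that of Crygs 1.07-fold. With 1 library for each mixture, the spread between mice of one mixture is not known.

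**Figure D3:**
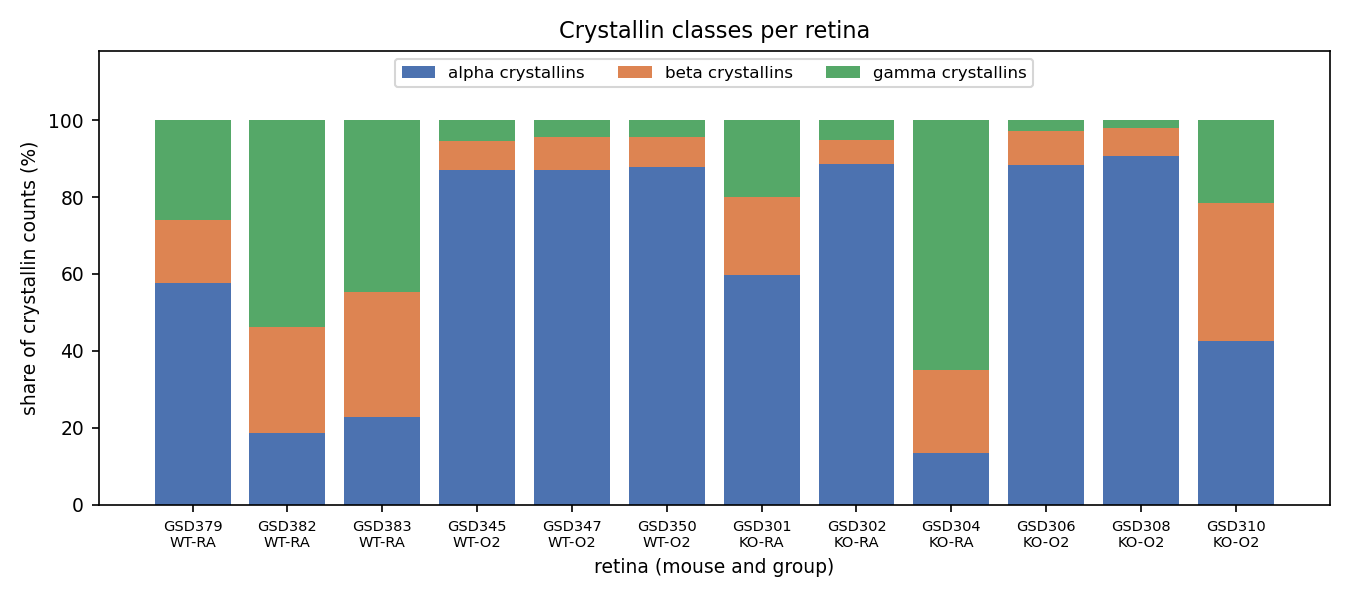
Share (percent) of alpha-, beta- and gamma-crystallins in the crystallin counts of each of 12 retinas, labelled by mouse and group. The gamma share is largest in GSD304 (64.9%), and alpha-crystallins take 87.1% to 90.6% in 6 retinas.

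The membrane and filament proteins of fibers were high in the same 3 libraries, at lower levels. Mip, the water channel aquaporin 0, was at 544 CPM in GSD383, 169 in GSD304 and 141 in GSD382, and at 0.611 to 2.46 CPM in the other 9. Lim2, a fiber membrane protein, was at 489, 296 and 195 CPM in GSD383, GSD304 and GSD382 and at most 2.06 CPM in the others. Gja3, the gap junction protein connexin 46, was at 47.8, 18.9 and 9.05 CPM and at most 0.412 CPM in the others. The beaded filament genes Bfsp1 and Bfsp2, which encode intermediate filaments found in lens fibers, reached 285 and 363 CPM in GSD383 and did not exceed 3.40 CPM in the 9.

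Among the other fiber genes, Lgsn, a glutamine-synthetase-like lens protein, and Birc7, an inhibitor of apoptosis, were highest in GSD304 with 293 and 29.2 CPM, against 172 and 19.7 CPM in GSD383. Dnase2b, the nuclease that degrades fiber nuclei, was at 8.74 CPM in GSD304, 9.41 in GSD383 and 3.94 in GSD382, while none of the other 9 retinas reached the floor. Grifin, a galectin-related protein, followed the crystallins, with 215, 105 and 72.9 CPM in GSD383, GSD304 and GSD382. Lenep was at 139, 128 and 55.1 CPM there, against 0 to 5.35 CPM in the other 9. Capn3, a calpain with a lens splice form that is also expressed in muscle, differed least, with 5.11, 2.62 and 2.75 CPM in the 3 libraries (GSD383, GSD304, GSD382) and 0.508 to 1.52 CPM in the 9.

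The regulators divided into genes of the lens and genes measured in all retinas. Foxe3, a transcription factor of the lens epithelium, was at 22.2 CPM in GSD383, 1.87 in GSD382 and 0.607 in GSD304, and at 0 in the other 9, where 3 counts would have been 0.103 to 0.121 CPM. GSD383 thus had 36.6 times as much Foxe3 as GSD304, but 2.41 times as much Cryaa and 0.579 times as much Cryga. Hsf4, the heat shock factor that controls fiber genes, was at 29.7, 15.2 and 11.8 CPM in GSD383, GSD304 and GSD382 and at 3.89 to 5.11 CPM in the 9. Maf was at 23.0, 14.99 and 13.5 CPM there and at 9.94 to 12.7 CPM in the 9, so that its lowest value in the 3 was 1.06 times its highest in the 9. Tdrd7, a component of RNA granules required for lens clarity, was at 175, 182 and 140 CPM in the same libraries and at 120 to 178 CPM in the 9.

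The members measured in the 9 retinas outside the 3 high libraries could be ordered by level per kilobase of transcript. The length used was the median of a gene's annotated protein-coding transcripts. The median over the 9 retinas was 132 CPM per kb for Cryab, 41.8 for Tdrd7, 10.3 for Crybb3, 2.72 for Hsf4 and 2.22 for Maf. The ranges of Cryab (96.7 to 215 CPM per kb) and Tdrd7 (32.6 to 48.3) did not overlap, whereas Crybb3 spanned 4.49 to 64.9. The highest values of Cryab and Crybb3 were those of GSD310, which held 121 CPM of Cryaa. The ranges of Hsf4 (2.47 to 3.24) and Maf (2.07 to 2.65) overlapped. Only Cryab, Tdrd7 and Maf exceeded 9 CPM in all 12 retinas. The number of members at 1 CPM or more was 9 to 12 in the 6 retinas with the least Cryaa, 20 in GSD301, 22 in GSD379, 26 in GSD310 and 30 to 31 in the 3 high libraries. Relative to Cryaa, Cryab was at 1.495 and Crybb3 at 0.415 in GSD310, against 0.418 to 0.572 and 0.285 to 0.311 in the 3 high libraries, whereas Cryba1 (0.671) and Crygs (0.138) were below their ratios there (0.764 to 0.866 and 0.248 to 0.266).

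**Figure D4:**
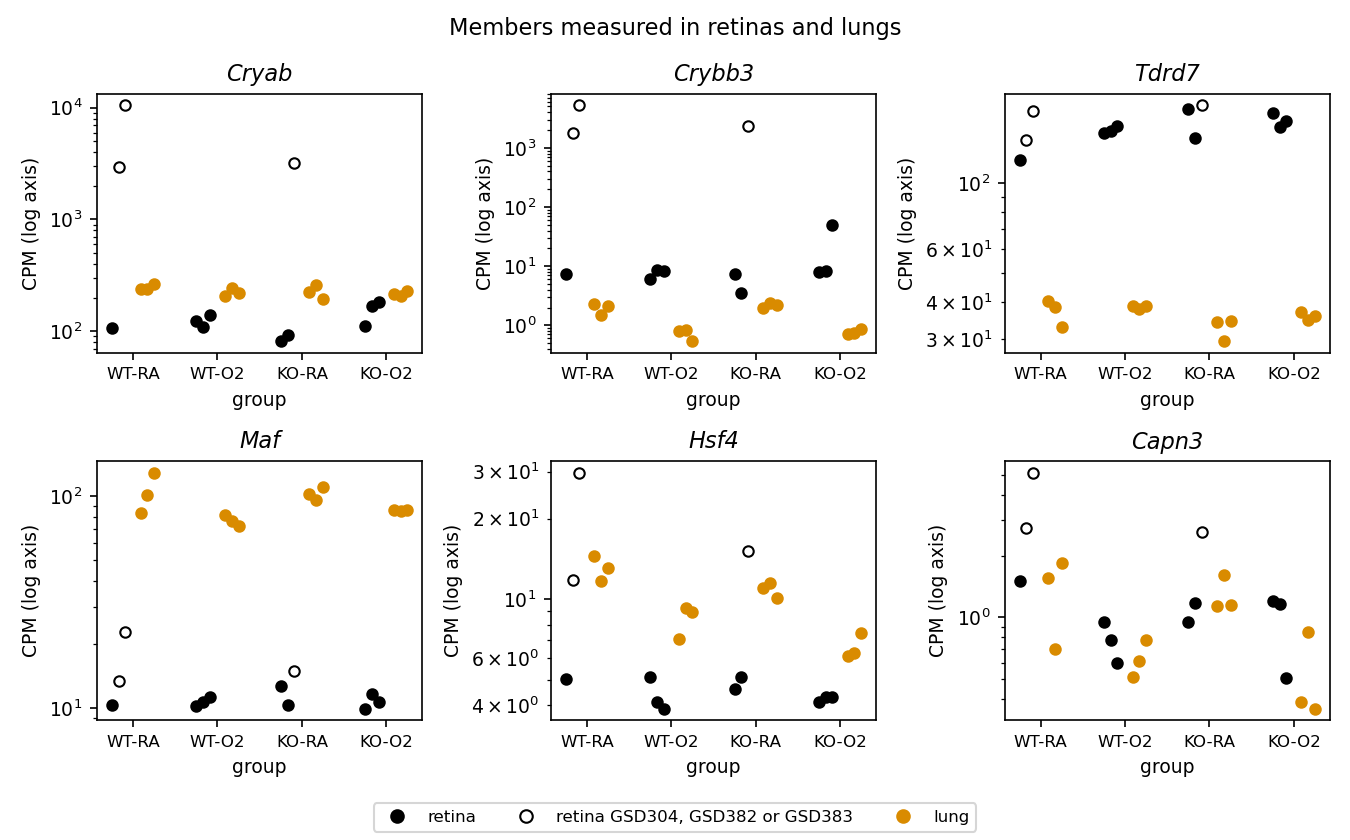
Level in CPM (log axes) of 6 members in each retina (black) and lung (orange) by group, 1 point per mouse, with open circles for GSD304, GSD382 and GSD383. Cryab, Crybb3, Tdrd7, Maf, Hsf4 and Capn3 were measured in every library of both tissues, and Tdrd7 is the only one whose open circles overlap the filled retina points.

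Genes outside the set with the same pattern were ranked by the share of their summed CPM over 12 retinas that fell in the 3 high libraries. The 10 highest included Lctl (99.0%), a klotho-related protein, Tmem40, Gcg, Pitx3, Wnt7b, Srd5a2, Gm43247, Hspb1 and Cd24a (83.5%). Of the genes named, all but Hspb1 were higher in GSD383 than in GSD304, from 75.4 against 65.8 CPM for Lctl to 11.2 against 0.981 CPM for Gcg. Pitx3, a lens transcription factor, was at 9.59 CPM in GSD383, 2.57 in GSD382 and 1.19 in GSD304. Wnt7b, a Wnt ligand, was at 22.0, 7.17 and 5.67 CPM in the same order. Hspb1, a small heat shock protein, was highest in GSD304 instead, with 289 CPM against 236 in GSD383 and 103 in GSD382. In a list of 14 other lens genes, 6 had all 3 libraries above the other 9, while Pax6 and Prox1, which are also made by retinal cells, did not (374 to 531 and 48.1 to 84.4 CPM over 12 retinas). Of 7 genes that are named for crystallins but lie outside the fiber set (Crybg1, Crybg2, Crybg3, Crym, Cryl1, Cryz and Cryzl1), none had this pattern.

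Most markers of another tissue were highest in 1 of these libraries. A list of 6 markers of the retinal pigment epithelium summed to 1783 CPM in GSD304, with Ttr at 1453 and Rpe65 at 228 CPM. The sum was 431 CPM in GSD383, 312 in GSD382 and 81.2 to 318 CPM in the other 9. Lrat (44.9 CPM) and Tyrp1 (32.7 CPM) were also highest in GSD304. Pmel was not (24.2 CPM, against 39.2 in GSD302), nor was Best1 (0.485 CPM, against 0.977 in GSD345). Ttr and Lrat were higher in GSD383 (354 and 7.52 CPM) and GSD382 (254 and 6.50 CPM) than in the other 9 as well. A list of 4 markers of cornea epithelium summed to 11.1 CPM in GSD310 and to 0.875 to 3.43 CPM in the other 11. The part of these tissues in the members' levels was not tested. In whole tissue, fewer cells of a type and less RNA per cell cannot be told apart.

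The first comparison asked which members changed with hyperoxia in WT retinas. Capn3 was called lower in WT-O2. It was at 1.52, 2.75 and 5.11 CPM in WT-RA (GSD379, GSD382, GSD383) and 0.947, 0.772 and 0.601 CPM in WT-O2, groups that did not overlap. Its log2 fold change was -2.26 (SE 0.58, adjusted p = 0.066, edgeR quasi-likelihood test with Benjamini-Hochberg adjustment). It was the only one of the 31 members called (adjusted p below 0.1, p below 0.05 and at least 2-fold), against 1.77% of all 19173 genes called higher and 0.266% called lower. All 31 had a negative log2 fold change, with a median of -10.4 against 0.00092 for all genes. An unadjusted p below 0.05 was reached by 28, against 3332 of all 19173 genes. DESeq2 called 25 lower, while it called 502 of the 19173 genes higher and 145 lower. GSD382 and GSD383, both WT-RA, had been named from the members. The Capn3 call and these directions and counts therefore describe the set and are no independent test of hyperoxia. Without GSD304, GSD382 and GSD383, none of the 29 members then tested was called (2 at unadjusted p below 0.05), with 1.42% of 21544 genes called higher and 0.26% lower. Capn3 was then at -1.21 (SE 0.60, adjusted p = 0.333), and WT-RA was represented by GSD379 alone, which was assumed to vary like the other groups. Without GSD310 as well, 1 of 27 members was called, Crygb at -3.59 (SE 0.65, adjusted p = 0.071), and 10 had an unadjusted p below 0.05, with 1.11% of 21319 genes called higher and 0.206% lower. Crygb was at 9.92 CPM in GSD379, the only WT-RA retina left. Leaving out 1 library at a time gave 18 members called without GSD304, 2 without GSD379 and 0 without GSD382, GSD383 or any WT-O2 library. Over all genes, 308 were called higher and 77 lower of 20034 without GSD304. Without GSD379 these were 186 and 39 of 20048. The most abundant members had large differences that were not called, with 1 of the 3 WT-RA retinas low: the log2 fold change was -12.8 for Cryaa (SE 4.59, adjusted p = 0.193) and -13.3 for Cryba1 (SE 4.61, adjusted p = 0.183).

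In KO retinas, no member was called with hyperoxia by edgeR, with 6 of 31 at unadjusted p below 0.05, whereas DESeq2 called 17 lower. Over all genes, edgeR called 1.64% higher and 0.553% lower, and 3890 of 19173 genes had an unadjusted p below 0.05. DESeq2 called 439 of the 19173 genes higher and 224 lower. All 31 log2 fold changes were negative, with a median of -6.01 against 0.00074 for all genes. GSD304, a KO-RA retina, had been named from the members, so this direction is no independent test either. Cryaa was at -6.14 (SE 3.51, adjusted p = 0.373) and Crybb3 at -5.34 (SE 2.68, adjusted p = 0.308). Without the 3 high libraries, none of 29 members was called, with 1.18% of genes called higher and 0.274% lower. An unadjusted p below 0.05 was reached by 2 of them, against 3615 of all 21544 genes. Of the 29, 25 had a positive log2 fold change, among them Cryaa at 2.56 (SE 2.36, adjusted p = 0.636). Without GSD310 as well, 9 of the 27 members tested had a positive log2 fold change and Cryaa was at -3.30 (SE 1.30, adjusted p = 0.322), GSD301 being 1 of the 2 KO-RA retinas left.

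Cryab was examined apart, since every retina held it. Without the 3 high libraries its KO-O2 values (112, 169 and 182 CPM) lay above both KO-RA values (81.8 and 92.5 CPM), with a log2 fold change of 0.84 (SE 0.22, adjusted p = 0.111), short of the threshold. With GSD310 also left out it was 0.70 (SE 0.22, adjusted p = 0.214). In WT it was -0.0021 (SE 0.27, adjusted p = 1), with GSD379 alone in room air. The interaction, the difference between the responses of KO and WT, was 0.84 (SE 0.34, adjusted p = 0.39). With all 12 retinas the values were -5.44 in WT (SE 1.90, adjusted p = 0.183) and -3.04 in KO (SE 1.70, adjusted p = 0.36). Tdrd7 and Maf moved little: over all 12 retinas Tdrd7 was at -0.18 in WT (SE 0.16, adjusted p = 0.618) and -0.10 in KO (SE 0.16, adjusted p = 0.78), and Maf at -0.78 (SE 0.27, adjusted p = 0.165) and -0.30 (SE 0.27, adjusted p = 0.586). Without the 3 high libraries both lay between -0.18 and 0.092 in the 2 genotypes.

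**Figure D5:**
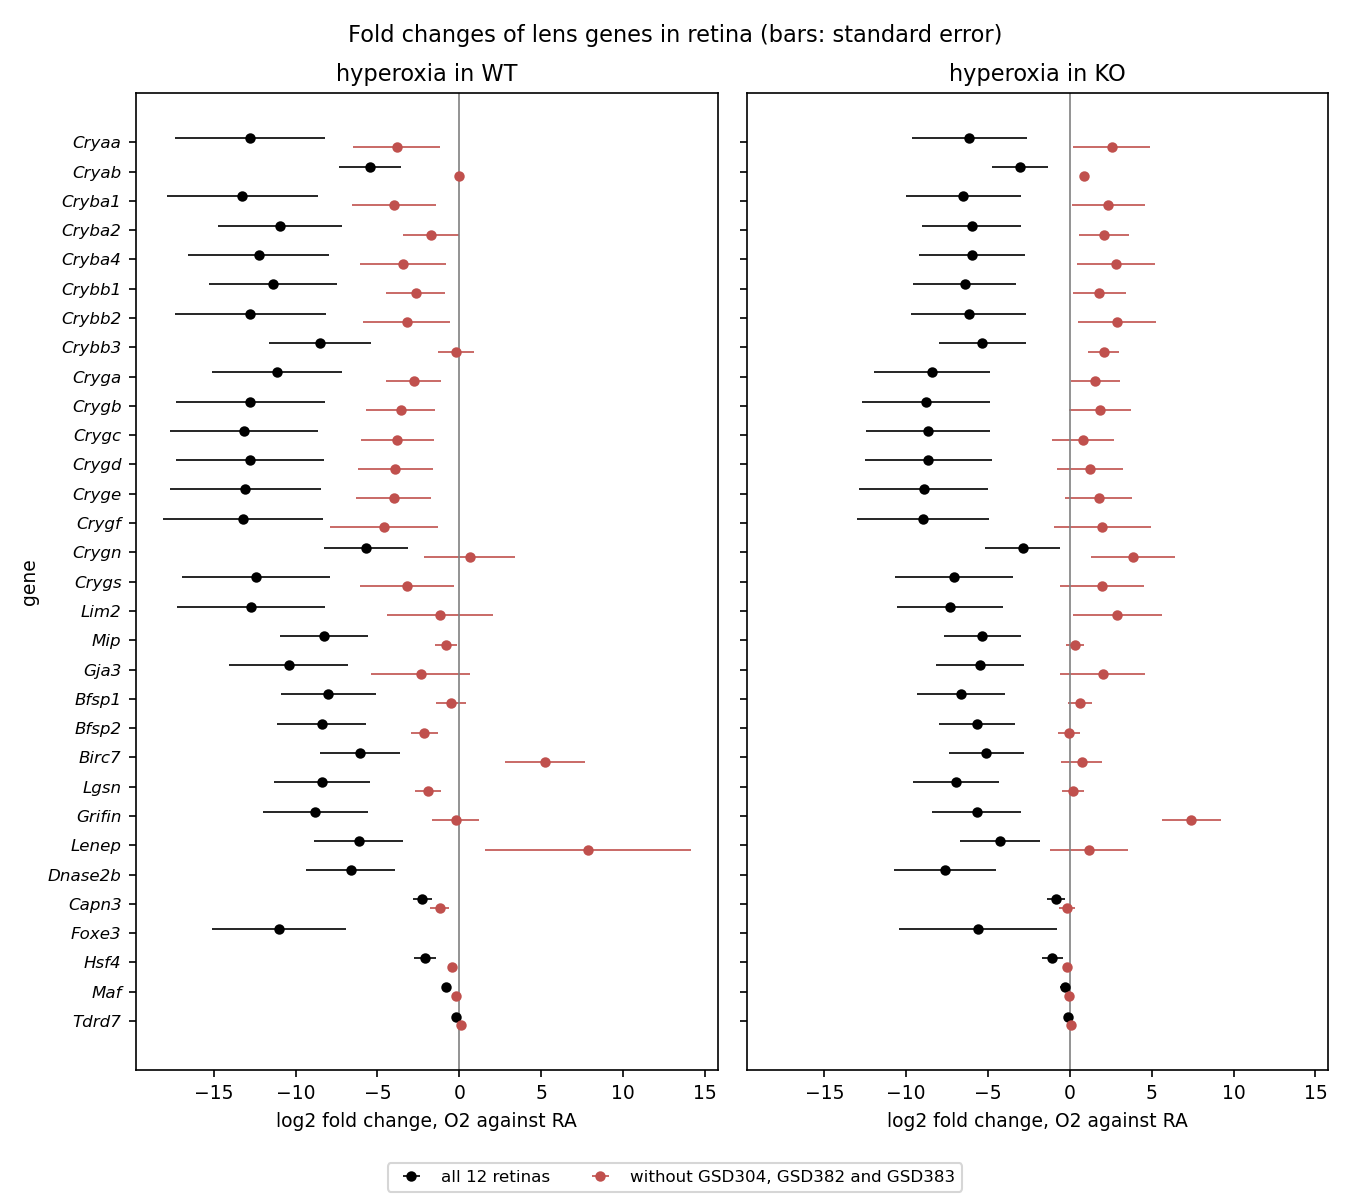
Log2 fold change of hyperoxia against room air for each member in WT (left) and KO retinas (right), with bars for the standard error, over all 12 retinas (black) and without GSD304, GSD382 and GSD383 (red). All black points lie below 0 in both panels, whereas 25 of the 29 red points in KO lie above 0, and Dnase2b and Foxe3 have no red point since they were not tested.

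The genotypes were then compared within each exposure. In hyperoxia no member was called between KO-O2 and WT-O2 (0 at unadjusted p below 0.05, and 0 called by DESeq2), with 0.0835% of genes called higher and 0.209% lower, although 28 of 31 members had a positive log2 fold change (median 1.80). Cryaa was at 4.94 (SE 3.41, adjusted p = 0.622), with 121 CPM in GSD310 and at most 1.68 CPM in the other 5 hyperoxic retinas. In room air none was called between KO-RA and WT-RA (0 at unadjusted p below 0.05, and 0 by DESeq2), with 0% of genes higher and 0.00522% lower, and the median of the members was -1.11. For the interaction none was called (0 at unadjusted p below 0.05, and 0 by DESeq2), with 0.00522% of genes higher and 0% lower. Without the 3 high libraries none was called between KO-O2 and WT-O2 either, the background being 0.0464% higher and 0.0789% lower. An unadjusted p below 0.05 was then reached by 2 of 29 members, against 2609 of all 21544 genes. The other 2 comparisons then rested on GSD379 alone in WT-RA. The median of the members was -0.96 in room air and 4.10 for the interaction. Without GSD310 as well, the median difference between KO-O2 and WT-O2 was 0.021 over the 27 members tested.

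Of the 14 other lens genes, edgeR called none in the 5 retina comparisons. For hyperoxia in WT, 8 had an unadjusted p below 0.05, against 3332 of all 19173 genes. DESeq2 called 5 lower with hyperoxia in WT, among them Lctl, Pitx3, Sox1 and Hspb1, and 1 in KO, Hspb1. Over all 19173 genes it called 145 lower in WT and 224 lower in KO. Lctl, Pitx3 and Hspb1 had been ranked by their share in the 3 high libraries, all from room air, so their direction is no independent test. Sox1 was high in the same libraries, at 1.16, 3.41 and 0.959 CPM in GSD382, GSD383 and GSD304. In every other retina Sox1 did not exceed 0.0824 CPM, so its direction is no independent test either. Among the 7 crystallin-related genes, Crym, which encodes a thyroid-hormone-binding protein, was higher in hyperoxia in both genotypes but stayed under the 2-fold limit. It was at 83.3, 61.4 and 60.8 CPM in WT-RA and 112, 123 and 167 CPM in WT-O2, and at 69.6, 70.0 and 66.7 CPM in KO-RA and 122, 144 and 99.9 CPM in KO-O2. The log2 fold changes were 0.74 (SE 0.19, adjusted p = 0.0622) and 0.77 (SE 0.19, adjusted p = 0.0441), and neither pair of groups overlapped. Without the 3 high libraries they were 0.45 (adjusted p = 0.417) and 0.82 (adjusted p = 0.106).

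In lungs, which hold no lens, the set was a mixture of absent and measured genes. Lim2, Foxe3 and Cryge were at 0 in all 12 lungs, and Cryga, Crygb, Crygc, Crygd and Crygf did not exceed 0.0678 CPM, under the floor. Cryab was at 192 to 266 CPM, above the 81.8 to 182 CPM of the 9 retinas. Maf was at 72.3 to 129 CPM and Tdrd7 at 29.6 to 40.3 CPM. Only 12 members passed the filter on low counts and were tested. Of these, Lenep and Bfsp2 were lower in every hyperoxic lung than in every lung from room air. Gja3 was at most 0.342 CPM in room air and at least 0.407 CPM in hyperoxia. These low genes passed the filter through the exposure where they were high. Their calls, and the counts of members called that include them, are therefore no independent test.

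With hyperoxia in WT lungs, 5 of these 12 members were called, 1 higher and 4 lower, while 5.04% of all 16819 genes were called higher and 6.57% lower. Crybb3 was at 2.33, 1.497 and 2.16 CPM in WT-RA and 0.816, 0.821 and 0.543 CPM in WT-O2, and these groups did not overlap. It fell by 1.45 on the log2 scale (SE 0.26, adjusted p = 0.00047). Bfsp2 fell by 2.14 (SE 0.48, adjusted p = 0.0026) from 0.517 ± 0.089 to 0.114 ± 0.071 CPM (SD, n = 3), and Capn3 by 1.10 (SE 0.41, adjusted p = 0.046) from 1.37 ± 0.60 to 0.635 ± 0.14 CPM. Gja3 rose by 1.53 (SE 0.53, adjusted p = 0.031), from 0.206 ± 0.12 to 0.602 ± 0.34 CPM. Lenep was at 1.40, 1.79 and 1.19 CPM in WT-RA and at 0 in WT-O2, at least 14.3-fold lower when set against 3 counts per library. Nearly all of its sequence is shared with Flad1, which was at 22.2 ± 1.6 CPM in WT-RA and 24.2 ± 2.6 CPM in WT-O2.

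In KO lungs 4 of the 12 were called, 1 higher and 3 lower, with a background of 4.57% higher and 6.03% lower. Crybb3 was at 1.98, 2.38 and 2.22 CPM in KO-RA and 0.724, 0.743 and 0.853 CPM in KO-O2, and fell by 1.46 (SE 0.26, adjusted p = 0.00044). Gja3 rose by 2.13 (SE 0.58, adjusted p = 0.0093), Capn3 fell by 1.27 (SE 0.43, adjusted p = 0.029), and Lenep was at least 11.7-fold lower. Bfsp2 was at -0.62 (SE 0.42, adjusted p = 0.27), and the difference between genotypes was not tested. Crybb3 was thus lower in all 6 hyperoxic lungs than in all 6 lungs from room air. Hsf4 fell by 0.63 in WT (SE 0.13, adjusted p = 0.0019) and by 0.68 in KO (SE 0.14, adjusted p = 0.0013), under the 2-fold limit. Cryab was at -0.15 (SE 0.10, adjusted p = 0.276) and -0.017 (SE 0.10, adjusted p = 0.915). Calls at these low levels rest on few counts per library.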

How the data were processed

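Estimated counts per gene, 1 column per mouse, were deposited by the authors in 1 table for retina and 1 for lung. The authors' processing notes name FastQC and kallisto. The notes and the methods name different mouse genome builds, which do not enter the values used here. All columns matched a labelled mouse. The members and gene lists were chosen with earlier results of these data known.

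Levels were expressed as CPM of the library total, with no test. For comparisons, estimated counts were rounded and fitted over all genes of a tissue and all 4 groups with edgeR 4.0.16 (TMM, filterByExpr by group, robust quasi-likelihood, R 4.3.3), with p-values adjusted over all genes by Benjamini-Hochberg. A gene was called at adjusted p below 0.1, p below 0.05 and at least 2-fold, and the interaction at adjusted p below 0.1. The fit was tested on simulated counts in which no library stood out. That setting differs from the lens genes in these retinas and does not show how the fit handles them. Named genes were all members, the lists of other lens and crystallin-related genes, and the 10 non-members with the highest share in GSD304, GSD382 and GSD383 (mean of at least 1 CPM). One gene of these lists is not reported here. Full statistics are given for members called and for those with a mean of at least 10 CPM in the other 9 retinas, which were 6 members, 3 of them through GSD310. Alternatives were RLE scaling, no filter, DESeq2 1.42.0, leaving out each library, leaving out the 3 high libraries and, chosen after seeing the data, also GSD310. Shared 31-base words were counted in GENCODE M21 transcripts. Library totals set the precision, with a floor of 3 counts and 95% Wilson intervals, both for counting error only.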

Additional observations from a re-analysis of the deposited data

How the results depend on the processing

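No paired analysis was possible because the replicate numbers follow accession order and the mice of different groups are not linked by the labels. Without GSD304, GSD382 and GSD383, WT-RA rested on GSD379 alone, so no count of calls is given for that setting in WT. The number of members called with hyperoxia in WT retinas, 1 with edgeR, was 25 with DESeq2. Leaving out 1 library at a time gave 0 to 18. In KO retinas it was 0 with edgeR and 17 with DESeq2. RLE scaling and omitting the filter changed no count of member calls in retina or lung. In WT lungs the count was 3 to 5 when libraries were left out in turn, 3 without GSD398 or GSD405, with Gja3 and Capn3 then no longer called. Gja3 was also lost without GSD399, and Capn3 without GSD400 or GSD403. In KO lungs the count was 3 to 4, Capn3 being lost without GSD061, GSD493 or GSD496. With TMM factors the summed level moved by more than the spread between mice in 2 libraries, to 271 CPM in the retina GSD347 and to 353 CPM in the lung GSD097, and the 10 genes most like the members were the same 10.

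Counted separately for each alternative, there were 17 changes of sign among the member values with statistics. The same gene and comparison could count more than once. Tdrd7 with hyperoxia in WT was 0.013 without GSD383 and 0.092 without the 3 high libraries, also without GSD310 as well (0.092). In KO retinas, leaving out GSD304 alone, and all 3 high libraries, gave 2.56 and 2.56 for Cryaa, 0.83 and 0.84 for Cryab, 2.35 and 2.36 for Cryba1, 2.05 and 2.06 for Crybb3, and 0.042 and 0.046 for Tdrd7. Without GSD310 as well, Cryab was at 0.70, Crybb3 at 0.60, Capn3 at 0.15 and Tdrd7 at 0.047. By construction these settings remove the libraries with the highest lens levels. With 3 mice per group and lens levels that differed by orders of magnitude between mice of one group, retina comparisons of these genes depended on which mice were kept. At low CPM, values rest on few counts.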

Other observations

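Optc, the gene of the eye protein opticin and one of 5 markers listed for ciliary body and iris, varied widely between retinas without following the lens genes. It was at 102 CPM in GSD383 but at 3.72 CPM in GSD382 and 6.15 CPM in GSD304. In the other retinas it was at 13.8 CPM in GSD379, 36.0, 130 and 62.1 CPM in WT-O2, 5.96 and 54.2 CPM in GSD301 and GSD302, and 26.8, 59.5 and 68.4 CPM in KO-O2. The cause was not tested.

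Krt12, a keratin of the cornea epithelium, was called higher with hyperoxia in KO retinas at low levels. It was at 0.730, 1.39 and 1.34 CPM in KO-RA and 2.55, 2.92 and 4.31 CPM in KO-O2, a log2 fold change of 1.42 (SE 0.34, adjusted p = 0.043). The highest value was in GSD310, the hyperoxic retina with the most lens transcripts, where Krt5 (2.89 CPM) and Aldh3a1 (3.40 CPM) were also higher than in the other 11 retinas. Without GSD304, GSD382 and GSD383, Krt12 was at 1.63 (SE 0.41, adjusted p = 0.104).

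Members of the lens set were not the only genes of the lens list to differ in lungs. Epha2, a receptor tyrosine kinase, rose with hyperoxia by 1.24 on the log2 scale in WT lungs (SE 0.13, adjusted p = 6.06e-06) and by 1.09 in KO lungs (SE 0.13, adjusted p = 2.11e-05), with no overlap between the 6 hyperoxic lungs and the 6 from room air.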
